A study of Mus musculus with 172 samples.

Results

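The genes of the AMPA and NMDA receptor subunits were followed in the cerebral cortex of mice of the BXD reference population after sleep deprivation (SD) and in undisturbed controls (Ctr). All 10 subunit genes named by the rule (*Gria1* to *Gria4* and *Grin1*, *Grin2a*, *Grin2b*, *Grin2c*, *Grin2d* and *Grin3a*) are listed among the 14896 genes of the cortex data, and 2 of them, *Gria3* and *Gria4*, among the 14107 genes of the liver data. Male mice of 11 to 14 weeks were sleep deprived for 6 h from light onset by gentle handling in the home cage, or were left undisturbed in another room, and both were killed at 6 h after light onset (ZT6). RNA of the mice of 1 line and condition (usually 3 mice, fewer for BXD79, BXD85 and BXD101) was pooled before sequencing, so that each value below belongs to a pool and no spread between mice can be given. Each condition holds 39 pools, from 33 BXD/RwwJ lines, which are inbred lines derived from crosses of C57BL/6J and DBA/2J, from 2 pools of each parental strain (taken at the start and at the end of the 2-year collection), and from the F1 of both reciprocal crosses (C57/BL/J x DBA/2J, here BD F1, and DBA/2J x C57/BL/J, here DB F1). In the labels BXD96, BXD97 and BXD103 carry the numbers of BXD48, BXD65 and BXD73 with a letter added. Those 3 lines are among the 33 as well. The 4 BXD/TyJ pools of each condition enter 1 alternative only. The labels name no other treatment in either condition.

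AMPA and NMDA receptors are the main ionotropic receptors for glutamate, the transmitter of excitatory cortical neurons. AMPA receptors carry the fast synaptic current as assemblies of 4 subunits encoded by *Gria1* to *Gria4*, and the subunit encoded by *Gria2* keeps calcium out of the channel because its transcript is edited at 1 codon of the pore. NMDA receptors need glutamate together with a co-agonist and current through other receptors before calcium enters. They join the obligatory subunit encoded by *Grin1* with subunits encoded by *Grin2a* to *Grin2d*, which set the kinetics, or with that encoded by *Grin3a*, which lowers calcium entry. Changes in the number and subunit make-up of these receptors are a known component of synaptic plasticity in the cortex.

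The proteins of the 10 genes belong to 1 family, and the sequences below are shown because the values that follow rest on telling these genes apart by their reads. The longest run of residues that all 10 share in the GENCODE models (release vM1, build NCBIM37, which is mm9) is 7 residues long, at the end of a membrane segment lining the pore. Its 21 coding bases are given 5′ to 3′ on the coding strand, with capitals marking bases that differ from *Gria1*.
Gria1 (chr11:57097076-57097096, + strand, exon 12): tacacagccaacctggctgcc
Gria2 (chr3:80506494-80506514, - strand, exon 12): tacacGgcTaacTtAgctgcc
Gria3 (chrX:38974038-38974058, + strand, exon 13): tacacTgcAaacctTgctgcT
Gria4 (chr9:4462020-4462040, - strand, exon 13): tacacTgcTaaTctggctgcA
Grin1 (chr2:25152722-25152742, - strand, exon 15): tacacTgccaacctggcAgcc
Grin2a (chr16:9653543-9653563, - strand, exon 10): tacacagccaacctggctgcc
Grin2b (chr6:135722265-135722285, - strand, exon 11): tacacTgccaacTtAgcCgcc
Grin2c (chr11:115115066-115115086, - strand, exon 9): tacacGgccaaTctggcAgcc
Grin2d (chr7:53109652-53109672, - strand, exon 8): taTacagccaaTctggctgcc
Grin3a (chr4:49783345-49783365, - strand, exon 3): tacacagcGaacTtggctgcT
All 10 stretches are coding and exonic. *Gria1* and *Grin2a* have the same 21 bases, and the other genes differ from them at 2 to 4 positions. Beyond this stretch the genes are well separated, and no stretch of 100 bases, the length of a read, of any of the 10 genes was found in a protein-coding transcript of another gene (0 of 4655 to 0 of 11134 stretches per gene). Over the whole protein, the AMPA receptor subunits share 67.3% to 72.5% of residues with each other, and the subunits encoded by *Grin2a* to *Grin2d* share 43.7% to 55.1%.

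The edited codon of the AMPA receptor pore (the Q/R site) is shown in the genomic sequence of the 4 *Gria* genes, with the codon in capitals, since genes of RNA editing are among the lists examined here.
Gria1 (chr11:57056581-57056603, + strand, exon 11): ctgggggccttcatgCAGcaagg
Gria2 (chr3:80510828-80510850, - strand, exon 11): ttgggtgcctttatgCAGcaagg
Gria3 (chrX:38963427-38963449, + strand, exon 12): ttgggtgcttttatgCAGcaagg
Gria4 (chr9:4464132-4464154, - strand, exon 12): ctgggtgcctttatgCAAcaagg
All 4 genes encode glutamine at this codon, through CAG in *Gria1* to *Gria3* and CAA in *Gria4*. Editing itself leaves no trace in counts per gene and was not analysed here.

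Values are log2 CPM, the log2 of read counts scaled to the size of the library by the authors (TMM), and differences between SD and Ctr are on the same log2 scale. The reads counted on the listed genes, which are only part of those sequenced, summed to 18995492 to 28998853 in the Ctr pools of the cortex. In its SD pools they summed to 19025159 to 28685060. Excitatory neuron markers were high in every cortex pool, with a summed level of 1915 to 2310 CPM in Ctr and 1864 to 2231 CPM in SD over the 5 markers, while *Alb*, *Apoa1* and *Serpina1a* of the liver list are not listed in the cortex data. The summed level of the markers differed (SD minus Ctr) by a mean of -0.043 for excitatory neurons, 0.049 for inhibitory neurons, 0.046 for astrocytes, -0.024 for oligodendrocytes, -0.045 for their precursors, -0.073 for microglia and 0.041 for endothelial cells, on the log2 scale over 39 pools. Lists of other tissues differed by more, with 0.20 for striatum, -0.35 for choroid plexus and -0.46 for the 1 listed gene of the liver list, *Ttr*, which is also in the choroid plexus list, against -0.046 for the 1 listed gene of red blood cells. The striatum list was higher in SD in 28 of 39 lines, and the choroid plexus list and *Ttr* in 18 each. Single pools lay far out, as the choroid plexus sum ran from 8.13 to 239 CPM in Ctr and from 7.19 to 411 CPM in SD. The part of these lists in the results below was not tested. As the samples are bulk tissue, fewer cells of a type and less RNA per cell cannot be told apart.

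A pair of Ctr pools stood apart from the others, those of BXD90 and BXD56, and both bear on several subunits. Their median correlation with the other Ctr pools over all genes was 0.979 and 0.977, whereas every other Ctr pool had 0.984 or more. For each library, a long-transcript index was taken as the median deviation of 1461 genes with transcripts of at least 6000 bases minus that of 1854 genes with transcripts under 2000 bases, all with a mean of at least 3 log2 CPM and without the 10 subunit genes. The index of the BXD90 Ctr pool was -0.69, that of the BXD56 Ctr pool was -0.15, and the mean of the 39 Ctr pools was -0.020 ± 0.123 (standard deviation). By the index BXD90 alone lay far out, since BXD56 was close to the Ctr pools of BXD75 (-0.13) and BXD44 (-0.10) and to the lowest SD pools (-0.15 and -0.14). The SD pools of the same lines were not low, at 0.065 and -0.0013, and the SD pools as a whole had an index of 0.019 ± 0.072 (standard deviation, n = 39). Results that rest on these pools are given with and without them.

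Per kilobase of exon, the order of the levels in Ctr began with *Gria2* at 146 ± 11.3 RPKM (standard deviation, n = 39), followed by *Grin1* at 76.2 ± 3.16, *Gria1* at 53.9 ± 4.38, *Gria3* at 38.5 ± 2.29 and *Gria4* at 29.8 ± 1.69 RPKM. *Grin2c* stood at 12.7 ± 1.75 RPKM, and the lowest were *Grin2b* at 4.11 ± 1.77, *Grin2a* at 3.44 ± 0.812, *Grin3a* at 3.24 ± 0.352 and *Grin2d* at 2.72 ± 0.365 RPKM. The first 6 genes kept their order in 39 of 39 Ctr pools, neighbour against neighbour, and among these only the ranges of *Gria3* and *Gria4* overlapped. Neighbours among the last 4 could not be separated by their spread, as *Grin2b* exceeded *Grin2a* in 27 of 39 pools, *Grin2a* exceeded *Grin3a* in 24 and *Grin3a* exceeded *Grin2d* in 35. The order depends on the length used, which here was that of all exons of the GENCODE gene model. With the length of the longest transcript, *Grin1* (173 RPKM) stood above *Gria2* (146 RPKM), *Gria3* (72.8 RPKM) above *Gria1* (58.7 RPKM), and *Grin3a* (6.82 RPKM) above *Grin2b* (4.49 RPKM). The model of *Grin2a* holds only 117 bases after the stop codon, against 2272 for *Grin2b*, and the RefSeq models on which the authors counted were not used here. Whether *Grin2c* also stands above *Grin2b* and *Grin2a* with other gene models was therefore not tested.

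**Figure D1:**
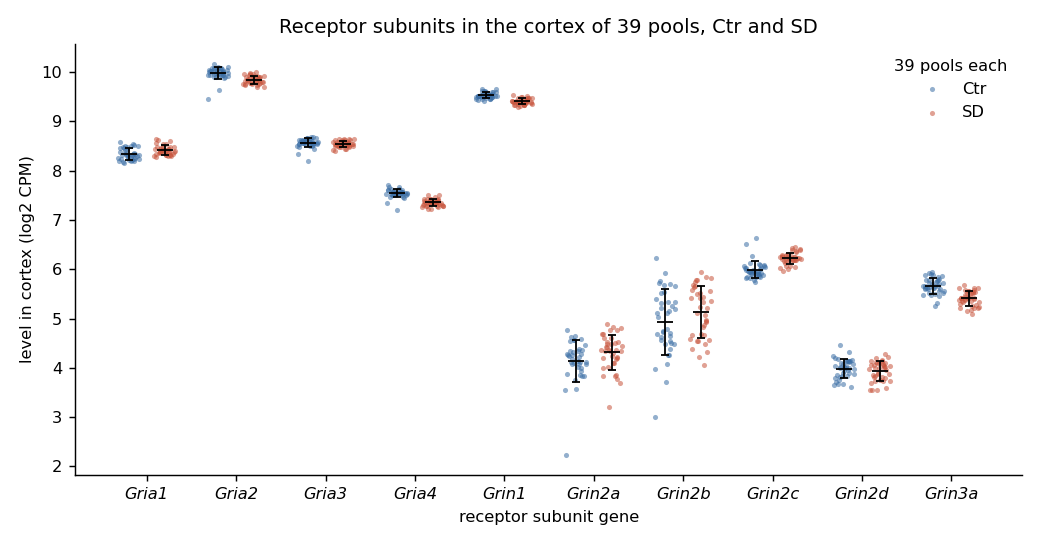
Level of each subunit gene in cortex (log2 CPM) in the 39 Ctr pools (blue) and the 39 SD pools (red), 1 point a pool, with bars for the mean and standard deviation. The ranges of Ctr and SD overlap for every gene, and *Grin2a* and *Grin2b* spread most. Levels are not corrected for length, so that heights are to be compared within a gene.

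The response to SD was tested by limma over all 14896 genes of the cortex, where 68.4% of genes passed an adjusted p of 0.05. Of the 10 subunits 6 passed, 2 higher in SD (33.0% of all genes) and 4 lower (35.4% of all genes). These shares lie near the background. That fit left the pairing of pools by line out, so its standard errors and 95% intervals also hold differences in level between lines. When a block paired the Ctr and SD pools of each line, 9 of the 10 passed, beside 76.3% of all genes. *Gria3* alone then did not pass (adjusted p = 0.329). The standard error of *Grin2b* went from 0.13 without the block to 0.084 with it. *Grin3a* fell most, by 16.3%, and *Grin2c* rose most, with 17.7%. The median change of the 10 subunits was -0.035, beside -0.0097 over all genes, and their median absolute change was 0.155, beside 0.125.

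Among the AMPA receptor subunits, *Gria1* was the one that rose. Its Ctr pools held 8.15, 8.32 and 8.59 log2 CPM (lowest, median and highest), and its SD pools 8.27, 8.39 and 8.65. The ranges of both conditions overlapped nearly in full, but the SD pool exceeded the Ctr pool of its line in 31 of 39 lines. The change was 0.074 ± 0.024 (standard error), a rise of 5.26% (adjusted p = 0.00443). Under quantile normalization the change of *Gria1* was 0.030 (adjusted p = 0.254), and the call was lost. The paired change spread with a standard deviation of 0.089, which is 3.80 times the spread that counting error alone gives at a mean of 7460 reads in Ctr.

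*Gria2*, whose product makes the receptor impermeable to calcium, fell. Its levels were 9.46, 9.999 and 10.17 log2 CPM in Ctr (lowest, median and highest) and 9.70, 9.84 and 9.9996 in SD. The lowest Ctr values belonged to BXD90 and BXD56 (9.46 and 9.65), and with them the pools of these lines were 2 of the 3 in which SD was above Ctr. *Gria2* was lower in SD in 36 of 39 lines, with a change of -0.13 ± 0.023 (standard error, adjusted p = 4.57e-07). Without BXD56 and BXD90 it was -0.16 ± 0.017.

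*Gria4*, whose product forms fast receptors typical of interneurons, fell more than *Gria2*. Its Ctr pools held 7.20, 7.55 and 7.71 log2 CPM (lowest, median and highest), and its SD pools 7.23, 7.36 and 7.51. SD was lower in 36 of 39 lines, and the lowest Ctr value again came from BXD56. The change was -0.19 ± 0.017 (standard error, adjusted p = 3.47e-16), and *Gria4* had the smallest adjusted p of the 10 genes.

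*Gria3* lies on the X chromosome, and its levels were 8.20, 8.57 and 8.69 log2 CPM in Ctr (lowest, median and highest) and 8.40, 8.53 and 8.64 in SD. The difference of -0.019 ± 0.018 (standard error) did not pass the test (adjusted p = 0.356), with a 95% interval from -0.054 to 0.017, although SD was the lower value in 28 of 39 lines. BXD56 and BXD90 held the lowest Ctr values and the largest positive changes (0.44 and 0.25). Without BXD90 alone the change of *Gria3* was -0.026 ± 0.017 and did not pass (adjusted p = 0.181). Without both lines it was -0.038 ± 0.014 and passed (adjusted p = 0.0142), and with the long-transcript index as a term it was -0.034 (adjusted p = 0.0496).

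The opposite movements of *Gria1* and *Gria2* were seen in their ratio, which is given as a description. The log2 ratio of *Gria1* to *Gria2* was -1.64 ± 0.135 (standard deviation, n = 39) in Ctr and -1.43 ± 0.124 in SD, uncorrected for length. It was higher in SD by a mean of 0.21 ± 0.153 (standard deviation) and in 36 of 39 lines. The extremes were BXD100, with a change of 0.46, and BXD90, with a change of -0.26. The summed CPM of the 4 *Gria* genes over that of the 6 *Grin* genes, in contrast, had a mean log2 change of 0.0044 ± 0.107 (standard deviation) and was higher in 19 of 39 lines.

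*Grin1*, which encodes the subunit present in every NMDA receptor, fell. It had the narrowest spread of the 10 genes, with 9.41, 9.52 and 9.66 log2 CPM in Ctr (lowest, median and highest) and 9.29, 9.40 and 9.53 in SD. The standard deviation of 0.059 among Ctr pools compares with a median of 0.090 among the 181 genes within 0.5 log2 CPM of its level. *Grin1* was lower in SD in 37 of 39 lines, with a change of -0.12 ± 0.014 (standard error, adjusted p = 1.52e-12). BXD90 and BXD56 were not at the edge of its range.

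*Grin3a*, whose subunit reduces the calcium permeability of NMDA receptors, showed the largest change. Its levels were 5.26, 5.66 and 5.94 log2 CPM in Ctr (lowest, median and highest) and 5.08, 5.41 and 5.69 in SD. The upper SD values overlapped the middle of the Ctr range, and SD was lower in 37 of 39 lines, with BXD90 as the line with the highest change (0.15). The change was -0.26 ± 0.034 (standard error, adjusted p = 3.34e-10). By absolute change it was number 3472 of the 14896 genes.

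*Grin2c*, best known from cerebellar granule cells and from astrocytes, rose. Its levels were 5.74, 5.95 and 6.64 log2 CPM in Ctr (lowest, median and highest) and 5.96, 6.22 and 6.46 in SD. The highest Ctr value belonged to BXD85 and was above every SD pool, while the SD pool exceeded the Ctr pool in 36 of 39 lines. The change was 0.24 ± 0.033 (standard error, adjusted p = 1.51e-09). The summed level of the 5 astrocyte markers was higher in SD in 29 of 39 lines, with 996 to 1651 CPM over the Ctr pools and 1068 to 1362 CPM over the SD pools, and its part in the change of *Grin2c* was not tested.

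*Grin2d*, a subunit with slow kinetics found in interneurons, had 3.62, 4.00 and 4.46 log2 CPM in Ctr (lowest, median and highest) and 3.55, 3.99 and 4.29 in SD. Both ranges were nearly the same, and SD was lower in 26 of 39 lines. The difference of -0.051 ± 0.043 (standard error) did not pass (adjusted p = 0.297, 95% interval -0.14 to 0.035). Under a replicate block on the line the same difference passed (adjusted p = 0.0295), but not without BXD56 and BXD90 in addition (adjusted p = 0.0540). At a mean of 365 reads in Ctr, the paired change of *Grin2d* spread only 1.20 times as much as counting error alone gives, the lowest value of the 10 genes.

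**Figure D2:**
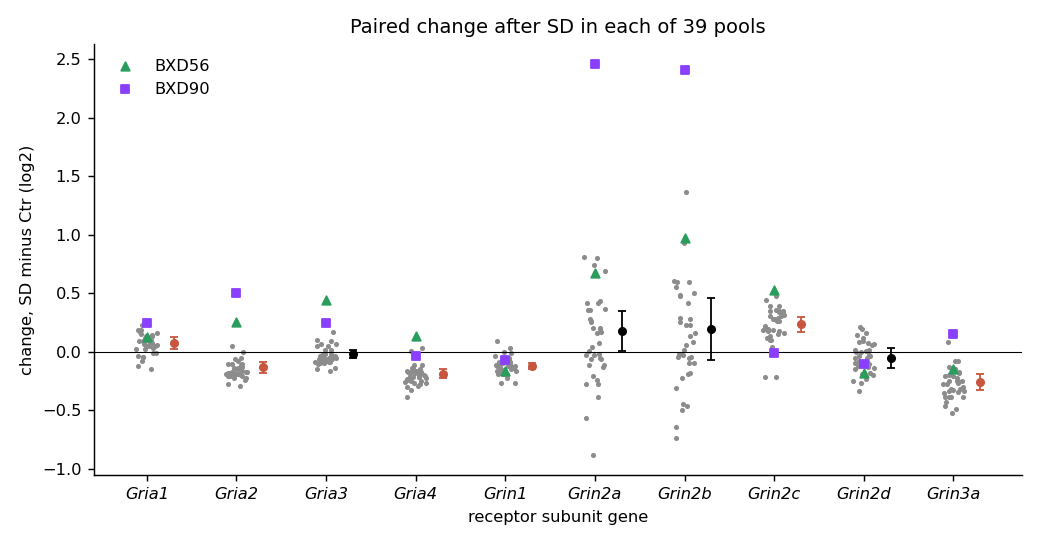
Change of each subunit gene (SD minus Ctr, log2) in each of the 39 pools. Points beside each column give the mean with the 95% interval of the fit without a block on the line, in red where the adjusted p is under 0.05. That interval includes the spread of levels between lines and is not an interval of the paired changes shown. The green triangles and violet squares mark BXD56 and BXD90. BXD90 stands at 2.46 for *Grin2a* and 2.41 for *Grin2b*, far above the other pools.

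*Grin2a* and *Grin2b* encode the principal NMDA receptor subunits of the adult forebrain, and they were the most variable of the 10 genes. *Grin2a* had 2.23, 4.17 and 4.78 log2 CPM in Ctr (lowest, median and highest) and 3.21, 4.36 and 4.89 in SD. *Grin2b* had 3.003, 5.04 and 6.22 log2 CPM in Ctr and 4.07, 5.21 and 5.95 in SD. The BXD90 Ctr pool was the lowest for both, with 99 reads of *Grin2a* and 170 reads of *Grin2b*, against 558 and 922 reads in its SD pool.

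The difference between conditions was 0.18 ± 0.087 (standard error, adjusted p = 0.0650) for *Grin2a*, higher in SD in 23 of 39 lines. For *Grin2b* it was 0.19 ± 0.13 (standard error, adjusted p = 0.189), higher in 22 of 39 lines. Neither passed, and the 95% intervals ran from 0.0035 to 0.35 and from -0.070 to 0.46. Under the replicate block both passed (adjusted p = 0.0357 and 0.0351), as 9 of the 10 subunits then did beside 76.3% of all genes. With voom and the block *Grin2a* passed (adjusted p = 0.0263) and *Grin2b* did not (0.16, adjusted p = 0.0531). Without BXD90 the differences were 0.12 and 0.13, and neither passed even with the block (adjusted p = 0.0512 and 0.0597). With the long-transcript index as a term they were 0.063 (adjusted p = 0.356) and 0.049 (adjusted p = 0.697).

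The spread of both genes was large for their level. The standard deviation among Ctr pools was 0.43 for *Grin2a* and 0.66 for *Grin2b*, beside medians of 0.12 and 0.10 among the 2238 and 2456 genes within 0.5 log2 CPM of their levels, of which 97.6% and 99.8% spread less or equally. The spread of the paired change was 5.18 and 7.30 times that from counting error alone. Both genes moved together over the pools, with r = 0.86 in Ctr and 0.80 in SD (Spearman's rho 0.86 and 0.78, permutation p = 1e-05 for each, the smallest the resamples can give, and adjusted p = 0.00045 over 90 relations, which are 45 pairs of genes in 2 conditions). Without the 2 pools farthest from the median of *Grin2a* r was 0.83 in Ctr and 0.80 in SD, and without BXD56 and BXD90 it was 0.82 and 0.81. The log2 ratio of *Grin2a* to *Grin2b* was -0.79 ± 0.372 (standard deviation, n = 39) in Ctr and -0.81 ± 0.321 in SD, and it was higher in SD in 19 of 39 lines.

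Of the 90 relations between subunits, only 2 other pairs of genes had an adjusted p under 0.05 for Pearson's r in the same direction in both conditions. *Gria2* and *Gria3* had r = 0.72 in Ctr and 0.61 in SD (rho 0.48 and 0.62, permutation p = 0.00012 and 9e-05, adjusted p = 0.00270 in both). *Gria2* and *Grin2a* had r = 0.61 and 0.45 (rho 0.040 and 0.48, permutation p = 0.00294 and 0.00420, adjusted p = 0.0300 and 0.0344). A further 6 pairs passed in 1 condition and 36 in neither. Of these 6, 3 rest on BXD56 and BXD90, without which the Ctr value fell from 0.60 to 0.074 for *Gria2* and *Gria4*, from 0.51 to 0.057 for *Gria2* and *Grin2b*, and from 0.62 to 0.062 for *Gria3* and *Gria4*. The others changed less without these lines. In SD, r went from 0.45 to 0.60 for *Grin2d* and *Grin3a*. In Ctr it went from -0.46 to -0.49 for *Grin2c* and *Grin3a*, and from 0.44 to 0.37 for *Gria1* and *Grin2b*. Without the 2 pools farthest from the median of *Gria2*, r in SD was 0.63 for *Gria2* and *Gria3* and 0.48 for *Gria2* and *Grin2a*. Without BXD56 and BXD90, the Ctr value was 0.36 for *Gria2* and *Gria3*. It was -0.044 for *Gria2* and *Grin2a*, whose Ctr relation rests on these pools.

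The levels of *Grin2a* and *Grin2b* moved with the long-transcript index of the library. In Ctr, r was 0.83 for *Grin2a* and 0.66 for *Grin2b* (rho 0.53 and 0.59, permutation p = 1e-05 for both r, adjusted p = 1e-04 over 20 relations), and without the 2 pools farthest from the median index, which are those of BXD90 and BXD56, it was 0.50 and 0.51. In SD, r was 0.57 and 0.52 (rho 0.58 and 0.51, permutation p = 0.00016 and 0.00062, adjusted p = 0.00064 and 0.00207), and 0.64 and 0.60 without the 2 farthest pools. *Gria2* was related to the index as well, with r = 0.79 in Ctr and 0.63 in SD (rho 0.45 and 0.66, permutation p = 5e-05 and 2e-05, adjusted p = 0.00025 and 0.000133), of which 0.32 was left in Ctr without the 2 farthest pools. *Gria3* was related to it in SD, with r = 0.49 (rho 0.43, permutation p = 0.00167, adjusted p = 0.00477) and 0.45 without the 2 farthest pools. In Ctr *Gria3* had r = 0.51 (rho 0.18, permutation p = 0.0245, adjusted p = 0.0544), of which 0.052 was left without the 2 farthest pools. *Grin1*, in contrast, had r = 0.10 in Ctr (permutation p = 0.530, rho -0.041) and -0.11 in SD (permutation p = 0.504, rho -0.091). What sets the index in a library was not tested.

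**Figure D3:**
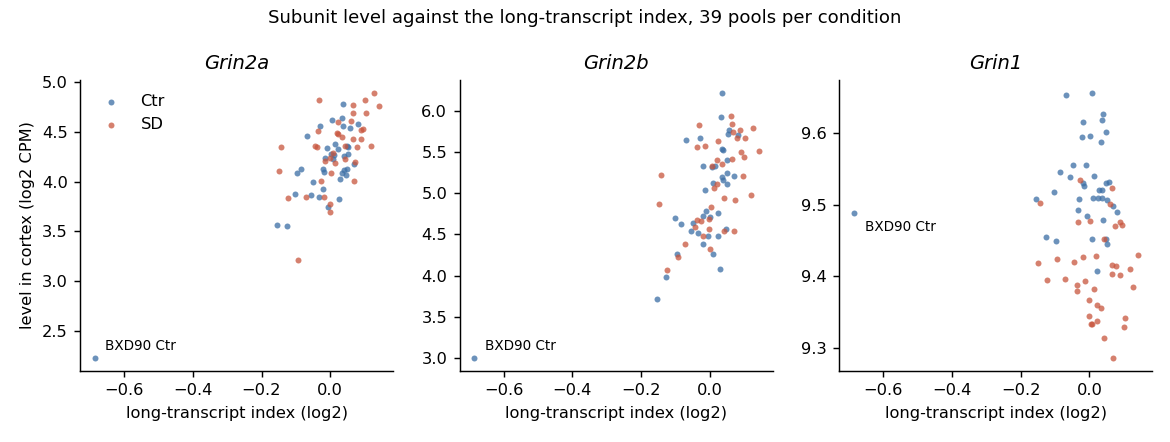
Level in cortex (log2 CPM) of *Grin2a*, *Grin2b* and *Grin1* against the long-transcript index of the library (log2), with 39 Ctr pools in blue and 39 SD pools in red. The BXD90 Ctr pool lies apart at an index of -0.69, where *Grin2a* and *Grin2b* have their lowest levels and *Grin1* does not.

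Genes whose change over the 39 lines was most like that of a subunit were named by the highest Pearson r among 13742 genes, as a description. For *Grin2a* these were *Vps13c* (r = 0.97) and *Huwe1* (r = 0.96), and for *Grin2b* they were *Macf1* (r = 0.95) and *Dst* (r = 0.95). These 4 genes have very long transcripts, of 11523 to 23407 bases in the longest model, and without BXD56 and BXD90 their r remained at 0.90 to 0.92. The genes named below, where a length was matched, have 1627 (*Ctdnep1*) to 8227 bases (*Sox6*). *Gria2* was closest to *Celf1* (r = 0.91) and *Exph5* (r = 0.91), of which 0.64 and 0.76 were left without these lines, and *Gria3* to *Palm2* (r = 0.83) and *Slc12a5* (r = 0.83), with 0.65 and 0.55 left. *Grin1* was closest to *Tcf25* (r = 0.81) and *Lynx1* (r = 0.81), and *Gria1* to *Slit1* (r = 0.71) and *Arhgef28* (r = 0.70). *Gria4* was closest to *Asph* (r = 0.80) and *Pcdh20* (r = 0.71), of which 0.76 and 0.59 were left without these lines. *Grin3a* was closest to *Nalcn* (r = 0.73) and *Sox6* (r = 0.72), of which 0.63 and 0.62 were left without these lines. *Grin2c* was closest to *Afap1l2* (r = 0.69), and *Grin2d* to *Ctdnep1* (r = 0.57) and *Rnf187* (r = 0.54). Each r was picked as among the highest of 13742 values, which alone makes it high, and none was tested. For *Grin2d* the change itself spread only 1.20 times as much as counting error gives.

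Differences between lines were tested with the line as a term over the Ctr and SD pools together. The 39 pools of a condition entered as 39 lines, and the 2 pools of a parental strain were thereby taken as separate lines although they share a genotype. BXD96, BXD97 and BXD103 also entered as lines separate from BXD48, BXD65 and BXD73, whose numbers their labels carry. The correlations over 39 pools treat them in the same way. The study aimed to pair SD and control mice of a line within its collection cohorts. The Ctr and SD pools of a line may thus share cohorts beside the genotype, which the line term cannot tell apart. Of the 10 subunits 5 passed an adjusted p of 0.05, as did 55.2% of all genes, and the same 5 passed over the 33 BXD/RwwJ lines alone. *Grin2d* had the smallest adjusted p in this fit (4.03e-09), and 77.4% of its variance beyond the condition lay between lines. The standard deviation between lines was larger for *Grin2b* (0.44) than for *Grin2d* (0.17), and with the long-transcript index as a term *Grin2b* had the smaller adjusted p (1.01e-09 beside 3.16e-09). *Gria1* followed with 64.7% (adjusted p = 3.32e-06), *Grin3a* with 58.6% (adjusted p = 2.19e-05), *Grin2b* with 54.0% (adjusted p = 3.33e-05) and *Grin2c* with 43.5% (adjusted p = 0.00144). *Gria4*, *Grin1*, *Grin2a*, *Gria2* and *Gria3* did not pass (adjusted p = 0.102, 0.144, 0.147, 0.231 and 0.509), with shares between lines of 20.8%, 21.7%, 10.6%, 8.37% and 0%. Without BXD56 and BXD90, *Gria2* (adjusted p = 0.000103), *Gria3* (adjusted p = 0.0454) and *Grin2a* (adjusted p = 0.00330) passed as well, which makes 8 of 10 beside 63.1% of all genes. With BXD90 alone removed, *Gria2* (adjusted p = 0.00858) and *Grin2a* (adjusted p = 0.00460) passed and *Gria3* did not (adjusted p = 0.373).

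The correlation of Ctr with SD levels describes these differences further. It uses the values of the test above, 1 Ctr and 1 SD pool of each line, and is no second result. Over 39 pools, r between the Ctr and the SD level was 0.77 for *Grin2d*, 0.66 for *Gria1*, 0.59 for *Grin3a*, 0.55 for *Grin2b* and 0.47 for *Grin2c* (rho 0.75, 0.62, 0.55, 0.63 and 0.48), beside a median r of 0.33 over all genes. The permutation p was 1e-05 for *Grin2d* and *Gria1*, the smallest the resamples can give, 7e-05 for *Grin3a*, 0.00022 for *Grin2b* and 0.00266 for *Grin2c*, and the adjusted p over 10 relations was at most 0.00532. Without the 2 pools farthest from the Ctr median, r was 0.76, 0.68, 0.46, 0.69 and 0.43 in the same order of genes. The other 5 genes had r between -0.032 and 0.22 (adjusted p of 0.276 to 0.850). By rank, *Gria2* and *Gria4* passed as well (rho 0.43 and 0.39, permutation p = 0.00626 and 0.0156, adjusted p = 0.0104 and 0.0223), while *Grin2a*, *Gria3* and *Grin1* had rho of 0.27, 0.18 and 0.17 (adjusted p = 0.119, 0.299 and 0.308). Without BXD56 and BXD90, *Gria2* had r = 0.58 (adjusted p = 0.000400) and *Grin2a* r = 0.37 (adjusted p = 0.0378).

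**Figure D4:**
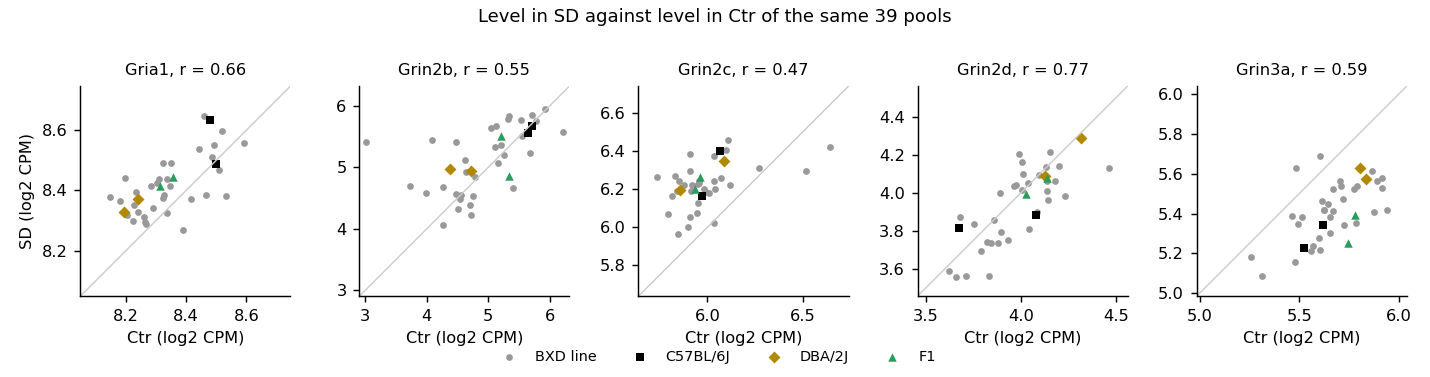
Level in SD against level in Ctr (both log2 CPM) for the 5 subunit genes whose lines differed, 1 point a pool, with the line of equal levels in grey. Parental and F1 pools have symbols of their own. Pools keep much of their order, *Grin2c* lies mostly above the grey line and *Grin3a* below it, and for *Grin2b* the C57BL/6J pools are above the DBA/2J pools.

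The parental strains were compared over 8 pools, 2 of each strain in each condition, and 4 of the 10 subunits passed beside 25.5% of all genes. *Grin2b* differed most and was lower in DBA/2J. Its C57BL/6J pools held 5.65 and 5.72 log2 CPM in Ctr and 5.56 and 5.67 in SD, and its DBA/2J pools 4.71 and 4.38 in Ctr and 4.94 and 4.98 in SD. All 4 DBA/2J values lay below all 4 C57BL/6J values, by 1.86-fold on average (difference of -0.90 ± 0.090, standard error, adjusted p = 2.73e-06). The F1 pools stood between the strains in Ctr, with 5.33 in BD F1 and 5.21 in DB F1, and at 4.87 and 5.50 in SD.

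*Gria1* was lower in DBA/2J too, with 8.19 and 8.24 log2 CPM in Ctr and 8.33 and 8.37 in SD against 8.50, 8.48, 8.49 and 8.63 in C57BL/6J. The groups did not overlap, and the difference was -0.24 ± 0.040 (standard error, adjusted p = 0.000356). *Grin3a* was higher in DBA/2J, where its pools held 5.81 and 5.84 in Ctr and 5.63 and 5.57 in SD against 5.52, 5.62, 5.22 and 5.34 in C57BL/6J. Within each condition the strains were separate, and the difference was 0.28 ± 0.047 (standard error, adjusted p = 0.000358).

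*Grin2d* was higher in DBA/2J as well, with 4.32 and 4.13 log2 CPM in Ctr and 4.29 and 4.09 in SD against 4.08 and 3.67 in Ctr and 3.88 and 3.81 in SD in C57BL/6J. The difference was 0.34 ± 0.087 (standard error, adjusted p = 0.00856). It did not pass without the second C57BL/6J pool (0.22, adjusted p = 0.0953) or without the first DBA/2J pool (0.25, adjusted p = 0.156). The other 6 genes differed by -0.18 (*Grin2a*) to 0.047 (*Gria4*), with adjusted p of 0.130 to 0.931. The BXD/RwwJ lines reached beyond the parents, as for *Grin2b* from 3.003 (BXD90) to 6.22 (BXD100) log2 CPM in Ctr.

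Whether the response to SD differed between the parental strains was tested by limma's interaction term. None of the 10 subunits passed (0 of 10 beside 0.00671% of all genes, which is 1 gene), and 1 of the 10 had an unadjusted p under 0.05. That gene was *Grin2b*, whose mean change was -0.070 in C57BL/6J and 0.41 in DBA/2J, a difference of 0.48 ± 0.13 (standard error, unadjusted p = 0.00291, adjusted p = 0.990). Over the 5 alternatives it ranged from 0.30 without the second DBA/2J replicate to 0.67 without the first. All 3 other strain-dependent genes had interaction p-values above this.

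In liver, where fewer reads were counted on the listed genes (4681101 to 8269401 per library), 1 of the 2 listed subunits passed beside 44.2% of all genes. *Gria3* had -0.083, 1.94 and 3.65 log2 CPM in Ctr (lowest, median and highest) and -2.75, 0.97 and 2.77 in SD. These values rest on 5 to 97 reads in Ctr and on 0 to 51 reads in SD, and the ranges overlapped widely. *Gria3* fell by 1.06 on the log2 scale (standard error 0.22, adjusted p = 4.37e-05) and was lower in SD in 36 of 39 lines. *Gria4* had a mean of 2.72 reads in Ctr and 2.85 in SD, with no read in 4 and 6 of the 39 pools, and its difference was -0.014 ± 0.198 (standard error, adjusted p = 0.965).

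The change of *Gria3* in liver minus that in cortex was -1.04 ± 0.144 (standard error), negative in 36 of 39 lines, and passed over the 12695 genes listed in both tissues, of which 57.6% did. For *Gria4* the same difference was 0.17 ± 0.176 (standard error, adjusted p = 0.411).

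The other genes of glutamate signalling were examined as lists, each beside the 68.4% of all genes that passed and the median change of -0.0097 of all genes. For counts of 1 direction the shares of all genes are 33.0% higher and 35.4% lower in SD. Of the auxiliary subunits of AMPA receptors, which escort the receptor and tune its gating, 8 of 12 rose and 1 fell (median change 0.12). The largest rise was that of *Shisa6*, from 4.40 ± 0.301 to 4.81 ± 0.172 log2 CPM (standard deviation, n = 39, adjusted p = 2.23e-10), and the fall was that of *Cnih3*, from 6.28 ± 0.140 to 6.03 ± 0.129 (adjusted p = 1.62e-11). Of the genes of AMPA receptor trafficking 7 of 11 rose and 2 fell (median change 0.20). *Nptx2*, whose product clusters AMPA receptors from outside the cell, rose by 0.88 ± 0.084 (standard error, adjusted p = 7.25e-16), and *Nsf*, an ATPase of membrane fusion, fell by 0.046 (standard error 0.012, adjusted p = 0.000647).

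Of the 19 genes of the postsynaptic scaffold and its signalling 12 rose and 5 fell (median change 0.097). *Homer1*, which links metabotropic receptors to the scaffold, rose in 39 of 39 lines, from 7.36 ± 0.135 to 8.22 ± 0.164 log2 CPM (standard deviation, adjusted p = 3.07e-38). Counts per gene do not tell its isoforms apart. The study names a short one, *Homer1a*, as a possible link between sleep drive and synaptic down-scaling. *Camk2g*, a subunit of a calcium-dependent kinase, fell by 0.32 (standard error 0.020, adjusted p = 7.51e-26). Of 9 listed modulators of NMDA receptors 5 rose and 2 fell (median change 0.067), among them *Ptpn5*, a phosphatase that acts on NMDA receptor subunits, with a rise of 0.31 ± 0.019 in 39 of 39 lines (standard error, adjusted p = 1.63e-26), and *Cdk5*, a kinase, with a fall to 6.54 ± 0.097 from 6.61 ± 0.095 (standard deviation, adjusted p = 0.00352).

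Among the receptors outside the AMPA and NMDA classes, few genes rose. Of 7 kainate and delta receptor subunits 4 fell and none rose (median change -0.16). Of 7 metabotropic receptors 3 fell and 1 rose (median change 0.023). *Grm2*, a presynaptic autoreceptor, was lower in SD in 39 of 39 lines (-0.54 ± 0.032, standard error, adjusted p = 4.35e-27), and the rise was that of *Grm4* (0.10 ± 0.047, standard error, adjusted p = 0.0484).

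Of 6 glutamate transporters 3 rose and 1 fell (median change 0.062). *Slc1a1*, an uptake carrier of neurons, rose by 0.25 ± 0.016 (standard error, adjusted p = 2.53e-24), and *Slc17a7*, which loads glutamate into vesicles, fell by 0.12 (standard error 0.019, adjusted p = 1.53e-08). Of the 3 genes of RNA editing, *Adarb2*, which encodes a protein without known editing activity, fell by 0.24 (standard error 0.050, adjusted p = 1.50e-05). *Adarb1*, which encodes the enzyme that edits the Q/R site shown above, differed by 0.016 ± 0.020 (standard error, adjusted p = 0.488), and *Adar* by 0.035 ± 0.025 (adjusted p = 0.224).

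**Figure D5:**
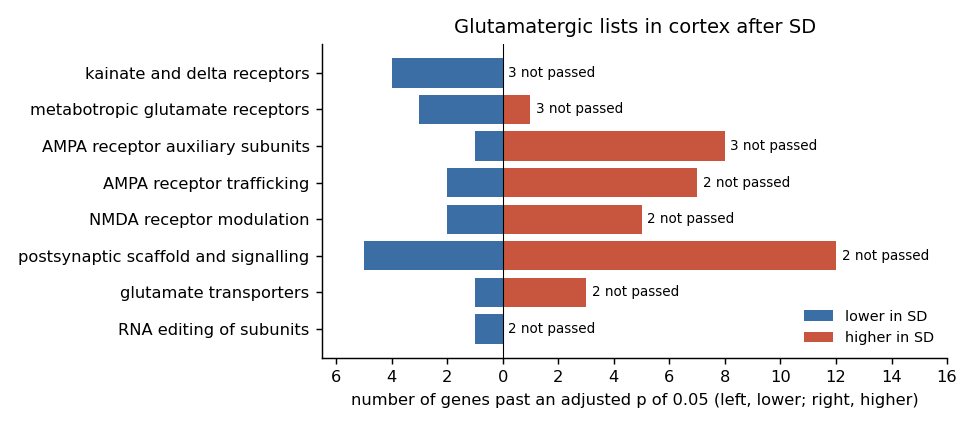
Number of genes of each list that passed an adjusted p of 0.05 after SD in cortex, to the left where lower and to the right where higher in SD, with the number that did not pass beside each bar. The scaffold list holds 12 genes that were higher and 5 that were lower, and the kainate and delta list holds 4 that were lower and none that was higher. Of all genes 33.0% were higher and 35.4% lower by the same threshold.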

How the data were processed

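The authors pooled the RNA of the mice of each line and condition, and made 1 stranded mRNA library from each pool. Per the methods of the study, single-end reads were aligned with STAR to mm9, counts per RefSeq gene were obtained with htseq-count, and genes with few reads on average were removed. The deposited values, for 172 libraries, are log2 CPM after the authors' TMM scaling. Whole reads, to within 0.02 of a read, were recovered from 100% of these values. Tests used limma 3.58.1 in R 4.3.3 on the deposited log2 CPM (eBayes with a variance trend), adjusted by Benjamini-Hochberg over all listed genes. The methods of the study name voom, which is an alternative here. The fits were also run on simulated counts with known changes. For SD against Ctr these counts held no differences between lines and no pool standing apart, so that they do not show how the fit handles either. SD was compared with Ctr without a block. The line codes pair the pools, since the Ctr and SD pools of a line share a genotype and their deviations correlated by 0.30 or more (median 0.61), against a median of -0.020 between lines. The parental comparison used strain and condition as terms, and that of tissues the paired change in liver minus that in cortex. Correlations over pools were tested with 100000 permutations (scipy 1.17.1, two-sided). Gene lengths and sequences came from GENCODE vM1 for NCBIM37, in which 13772 of the cortex genes were matched by symbol. Standard errors and p-values measure the spread between pools. The subunits and the lists were chosen with earlier results of these data known. The genes named are all subunits, the largest rise and fall past the threshold in each list, and the 2 genes most like each subunit. Some of the genes that these rules select are not reported here. The removal of BXD56 and BXD90, the long-transcript index, the relations between subunits and the removal of each line in turn were added after the data were seen.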

Additional observations from a re-analysis of the deposited data

Results flagged for a closer look

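The response of *Gria3* to SD differed between the tissues, with a change in liver minus cortex of -1.04 on the log2 scale by the test of the difference itself. In liver the change was -1.06 and in cortex -0.019, and the liver values rest on a mean of 32.0 reads per pool in Ctr and 16.3 in SD.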

How the results depend on the processing

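The 16 alternatives for SD against Ctr in cortex called 9621 to 11567 genes beside 10191, and the changes of all 10 subunits kept their direction under each of them. The calls of *Gria2*, *Gria4*, *Grin1*, *Grin2c* and *Grin3a* held under all 16 and without each of the 39 lines, and *Gria1* lost its call under quantile normalization alone. *Grin2a* also passed with all 43 pools (0.21, adjusted p = 0.0328) and without BXD55, BXD98 or BXD100. *Gria3* passed under quantile normalization (-0.060, adjusted p = 0.000452). The replicate block changed the calls of *Grin2a*, *Grin2b* and *Grin2d* in cortex and none in liver, and called 11359 genes in cortex. With no replicate block, the comparison of tissues called 6067 genes beside 7312 and kept both of its subunit results.

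With the length of the longest transcript, *Gria1* stood at 58.7, *Gria3* at 72.8, *Gria4* at 34.3, *Grin1* at 173 and *Grin3a* at 6.82 RPKM. The correlation of Ctr and SD levels of *Gria3* became positive with median-centred libraries (0.012), without BXD90 (0.014) and without BXD56 and BXD90 (0.28). Without 1 parental pool, the parental difference called 2398 to 3417 genes, with the lowest count without the first DBA/2J pool and 2527 without the second, and the interaction called 0 to 1. Differences that had not passed changed sign in some of these fits, with ranges of -0.085 to 5.17e-05 for *Gria2*, -0.016 to 0.11 for *Gria4*, -0.023 to 0.037 for *Grin1* and -0.12 to 0.067 for *Grin2c*. Without 1 line, the liver change of *Gria4* ranged from -0.077 to 0.045. The cause of these shifts was not tested. In liver *Gria4* rests on 0 to 8 reads a pool.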
